A study of Mus musculus with 20 samples.

Results

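T-box genes encode transcription factors that share a DNA-binding domain named after Brachyury. The 8 T-box genes described here, *Tbx1*, *Tbx2*, *Tbx3*, *Tbx4*, *Tbx5*, *Tbx15*, *Tbx18* and *Tbx20*, were taken by their symbols from the 43280 genes listed in the count files. T-box factors bind DNA as activators or repressors and pattern limb, heart, pharynx, lung and body wall in the embryo. *Tbx2* and *Tbx3* are best known as repressors, whereas *Tbx5* and *Tbx20* act in the heart, *Tbx4* and *Tbx5* in limb and lung, *Tbx15* and *Tbx18* in skeleton and visceral mesenchyme, and *Tbx1* in the pharyngeal apparatus. Many genes of this kind carry the repressive mark H3K27me3, which is placed by the Polycomb complex PRC2, and Eed is a core subunit of that complex.

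Mouse RNA-seq libraries numbered 8 from embryos and 4 from adults, and ATAC-seq gave 1 peak list for each of the 4 embryonic conditions. Embryonic cells were GFP+ mesenchymal cells sorted from stomach or intestine at E13.5, with 2 libraries for each organ and genotype. The labels give C57BL/6 as the strain of the embryos and none for the adults, whereas the study's methods describe the *Eed*, reporter and Pdgfrb Cre lines as mixed backgrounds, so strain and genotype cannot be told apart. Control embryos carried Bapx1-cre and the Rosa26mTmG reporter, and *Eed* KO embryos carried in addition Eedfl/fl. Both genotypes therefore carried the Cre, the controls carried no floxed *Eed*, and deletion was limited to cells that express *Bapx1* (*Nkx3-2*) and their descendants. Adult cells were GFP+ stromal cells of the small intestine, 2 control and 2 *Eed* KO libraries, from mice of about 10 weeks that carried the tamoxifen-inducible Pdgfrb Cre-ERT2 and the same reporter, without or with Eed fl/fl. Tamoxifen was given at 100 mg/kg per day for 5 days, followed by 2 days of rest. The study names the libraries biological replicates but does not say whether animals were pooled, so p-values measure the spread between these libraries.

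Counts on genes ranged from 30236159 to 39606157 in the embryonic and from 11404712 to 15903642 in the adult libraries. *Eed* itself, the targeted gene, was at 38.1 and 40.1 CPM (counts scaled to library size by TMM) in the control intestine, 10.7 and 8.59 CPM in the *Eed* KO intestine, 40.1 and 41.5 CPM in the control stomach, and 11.5 and 7.40 CPM in the *Eed* KO stomach. It fell by 2.02 (SE 0.21) on the log2 scale in the intestine and by 2.11 (SE 0.21) in the stomach, with adjusted p = 0.0046 and 0.0017 in the edgeR quasi-likelihood test. In the adult libraries *Eed* was at 29.7 and 33.4 CPM in controls and 25.7 and 25.0 CPM in *Eed* KO, a log2 fold change of -0.32 (SE 0.21, adjusted p = 0.32, edgeR). Spike-in counts ranged from 26227 to 37590 in embryonic controls and from 4871 to 14932 in embryonic *Eed* KO libraries. When libraries were scaled to the spike-ins, the log2 value of the median gene shifted by 2.39 (stomach) and 1.85 (intestine), and *Eed* was no longer lower in the stomach (0.14). Changes below are thus relative to the bulk of the transcripts. In bulk samples, fewer cells of a type and less RNA per cell cannot be told apart.

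The 8 genes lie on 5 mouse chromosomes of GRCm38. *Tbx2* (chr11:85832551-85841948, + strand) and *Tbx4* (chr11:85886422-85916097, + strand) are neighbours separated by 44474 bp, and *Tbx3* (chr5:119670669-119684724, + strand) and *Tbx5* (chr5:119834663-119885218, + strand) are neighbours separated by 149939 bp. *Tbx20* (chr9:24720812-24774303) and *Tbx18* (chr9:87702800-87731260) share a chromosome and are both on the - strand. *Tbx15* lies at chr3:99240381-99354259 on the + strand and *Tbx1* at chr16:18581713-18586969 on the - strand. These are the GENCODE vM4 models of the deposited adult count files.

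Promoter sequences were at hand for 4 of the 8 genes, in the RefSeq table of build GRCm38.p6, and of the 2 *Tbx1* starts there the outer one is shown. The 250 bases before the inner *Tbx1* start (chr16:18588900-18589149, 17 CpGs) lay in an intron of the longer transcript and held 0 bases of peak in all 4 lists. They are shown because the ATAC-seq lists bear on them, with peaks at 3 of the 4 printed ones in every list and at the *Tbx4* sequence in 1 list. Each run holds the 250 bases before a transcript start, 5′ to 3′ on the strand of the gene, with every CpG in capitals.
*Tbx20* (chr9:24774304-24774553, - strand): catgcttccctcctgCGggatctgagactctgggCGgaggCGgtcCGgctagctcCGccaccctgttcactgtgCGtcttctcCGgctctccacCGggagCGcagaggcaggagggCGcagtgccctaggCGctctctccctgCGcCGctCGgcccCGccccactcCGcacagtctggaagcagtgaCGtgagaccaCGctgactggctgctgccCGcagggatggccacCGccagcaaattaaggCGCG
*Tbx18* (chr9:87731261-87731510, - strand): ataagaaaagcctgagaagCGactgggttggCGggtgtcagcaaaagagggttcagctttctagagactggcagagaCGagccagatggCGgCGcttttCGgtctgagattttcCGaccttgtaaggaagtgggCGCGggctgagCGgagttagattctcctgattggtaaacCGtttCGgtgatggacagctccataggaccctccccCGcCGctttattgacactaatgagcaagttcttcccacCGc
*Tbx1* (chr16:18590672-18590921, - strand): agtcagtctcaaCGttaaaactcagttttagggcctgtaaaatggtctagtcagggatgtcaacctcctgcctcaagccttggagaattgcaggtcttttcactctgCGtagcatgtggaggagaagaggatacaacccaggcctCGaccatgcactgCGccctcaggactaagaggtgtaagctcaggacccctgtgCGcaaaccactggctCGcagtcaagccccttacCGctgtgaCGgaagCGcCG
*Tbx4* (chr11:85896515-85896764, + strand): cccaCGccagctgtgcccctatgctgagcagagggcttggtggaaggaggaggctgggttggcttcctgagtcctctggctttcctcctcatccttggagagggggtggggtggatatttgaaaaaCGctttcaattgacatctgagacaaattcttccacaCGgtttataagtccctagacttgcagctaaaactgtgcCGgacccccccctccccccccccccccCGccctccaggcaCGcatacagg
*Tbx20* held 22 CpGs, *Tbx18* 15, *Tbx1* 10 and *Tbx4* 6, against a median of 6 and an upper quartile of 16 over 32851 promoters of the table. The first 3 sequences overlapped no annotated *Tbx* transcript of GENCODE vM21, whereas the *Tbx4* sequence precedes an internal start and lay in an intron of 2 longer transcripts. Peaks covered all 250 bases of the *Tbx20*, *Tbx18* and *Tbx1* sequences in each of the 4 lists. At the *Tbx4* sequence, peaks covered 194 bases in the *Eed* KO stomach list (fold enrichment 3.76) and 0 bases in the other lists. The T-box binding motif AGGTGTGA, searched on both strands, was in none of the 4 sequences and in 1.12% of all promoters, and its core GGTGTG, which is part of the longer motif, was also in none of them and in 16.3% of all promoters.

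In control mesenchyme, *Tbx2* and *Tbx3* made up most of the T-box message. In TPM, which corrects for gene length, the 8 genes summed to 26.0 and 38.8 in control intestine libraries, with 18.4 and 21.3 in those of the control stomach. *Tbx2* and *Tbx3* together took 97.6% and 96.4% of that sum for the control intestine but 87.5% and 78.3% for the control stomach. *Tbx18*, a gene of visceral mesenchyme, was next in the control stomach, with 1.61 and 3.77 TPM. The other 5 genes were at most at 0.449 TPM in every embryonic control library. Without *Eed*, the sum reached 58.4 and 70.9 TPM for the intestine libraries and 84.2 and 113 TPM for the stomach libraries. The share of *Tbx2* and *Tbx3* was then 78.0% and 71.0% (intestine) and 52.3% and 57.6% (stomach). No *Eed* KO library overlapped the controls of its organ in either measure.

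**Figure D1:**
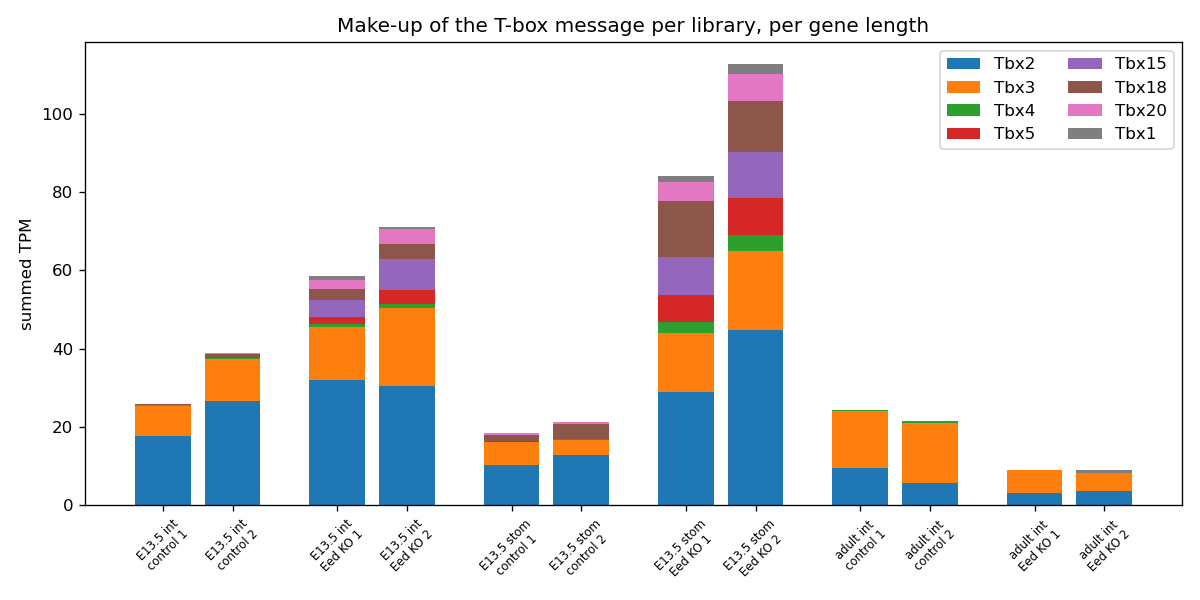
Stacked bars show the TPM of the 8 T-box genes in each of the 12 libraries, grouped by organ, age and genotype (int, intestine; stom, stomach). Sums were 18.4 to 38.8 TPM in embryonic controls, 58.4 to 113 TPM in embryonic *Eed* KO libraries and 9.04 to 24.4 TPM in adult libraries, which came from another library kit.

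The first comparison asked which T-box genes change in the stomach mesenchyme without *Eed*. All 8 genes rose in the *Eed* KO stomach past the thresholds (a log2 fold change above 1 with an adjusted p under 0.05), where 4.84% of all 16218 tested genes were higher. Both *Eed* KO libraries were above both control libraries for each of the 8, as for 27.7% of all tested genes. Only *Tbx2*, *Tbx3*, *Tbx18* and *Tbx20* passed the filter for low counts (0.276 CPM) in control libraries, in 4, 4, 4 and 3 of the 4 respectively. *Tbx1*, *Tbx4*, *Tbx5* and *Tbx15* were over it in *Eed* KO libraries only, 3 of 4 for *Tbx1* and 4 of 4 for the rest. These 4 genes entered the test through the group in which they were high, so the count of 8 is a description. Adjusted p-values in this and the following paragraphs are from the edgeR quasi-likelihood test, and with 2 libraries against 2 a two-sided exact permutation test of a single gene cannot go below p = 0.333.

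*Tbx15*, a factor of skeletal and skin mesenchyme, had the largest fitted change. It was at 0.0580 and 0.0765 CPM in the control stomach (2 and 3 counts), and its 439 and 491 counts in the *Eed* KO stomach stood for a mean of 12.6 CPM (SD 1.19, n = 2). Its log2 fold change was 7.47 (SE 0.53, adjusted p = 0.00054). *Tbx5*, needed for heart and forelimb, was at 0.174 and 0.127 CPM in controls and at 8.64 and 11.5 CPM in *Eed* KO, a log2 fold change of 6.04 (SE 0.44, adjusted p = 0.0010). *Tbx4*, the hindlimb and lung counterpart of *Tbx5*, was at 0.0870 and 0.229 CPM in controls and at 2.95 and 4.25 CPM in *Eed* KO, with a log2 fold change of 4.45 (SE 0.47, adjusted p = 0.0024), or 5.32 without control stomach replicate 2. These 3 genes went from a few counts per library to 110 counts or more.

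*Tbx20*, a cardiac factor, had counts in controls as well, at 0.899 and 1.02 CPM against 10.6 and 14.6 CPM in *Eed* KO, and rose by 3.71 (SE 0.46) on the log2 scale (adjusted p = 0.0042). *Tbx1* was the lowest of the 8 in the *Eed* KO stomach, per length, with 1.52 and 2.32 TPM. It had 1 count in each control library and 32 and 46 counts in *Eed* KO, a ratio of 39.0 with an exact 95% counting interval of 10.4 to 328. That interval covers counting error only, and the fitted log2 fold change was 5.12 (SE 0.80, adjusted p = 0.011). *Tbx4*, *Tbx5*, *Tbx15* and *Tbx20* stayed past the thresholds in each of the 11 alternatives run for this comparison.

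The remaining 3 genes were already expressed in control stomach and rose less. *Tbx18* was at 2.49 and 5.86 CPM in controls and 21.5 and 18.8 CPM in *Eed* KO, a log2 fold change of 2.26 (SE 0.41, adjusted p = 0.019), or 3.02 without control stomach replicate 2. *Tbx3* was at 10.1 and 6.68 CPM against 25.7 and 32.9 CPM, a log2 fold change of 1.80 (SE 0.27, adjusted p = 0.0087). *Tbx2* was at 12.3 and 15.5 CPM against 33.5 and 49.7 CPM, a log2 fold change of 1.58 (SE 0.25, adjusted p = 0.011). The groups did not overlap for any of them. With 1 factor of unwanted variation taken from the spike-ins, the adjusted p was 0.099 for *Tbx18*, 0.097 for *Tbx3* and 0.11 for *Tbx2*, and that factor itself moved with genotype, from -0.401 to -0.203 in control and from 0.0397 to 0.544 in *Eed* KO libraries. Leaving out 1 library also ended calls, for *Tbx18* without control stomach replicate 1 or either *Eed* KO stomach replicate, for *Tbx2* and *Tbx1* without either control stomach replicate, for *Tbx1* without *Eed* KO stomach replicate 2, and for *Tbx3* without control stomach replicate 2, with adjusted p between 0.057 and 0.099. Relative to the median gene under spike-in scaling, the change remained 2.19 for *Tbx18*, 1.90 for *Tbx3* and 1.68 for *Tbx2*.

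**Figure D2:**
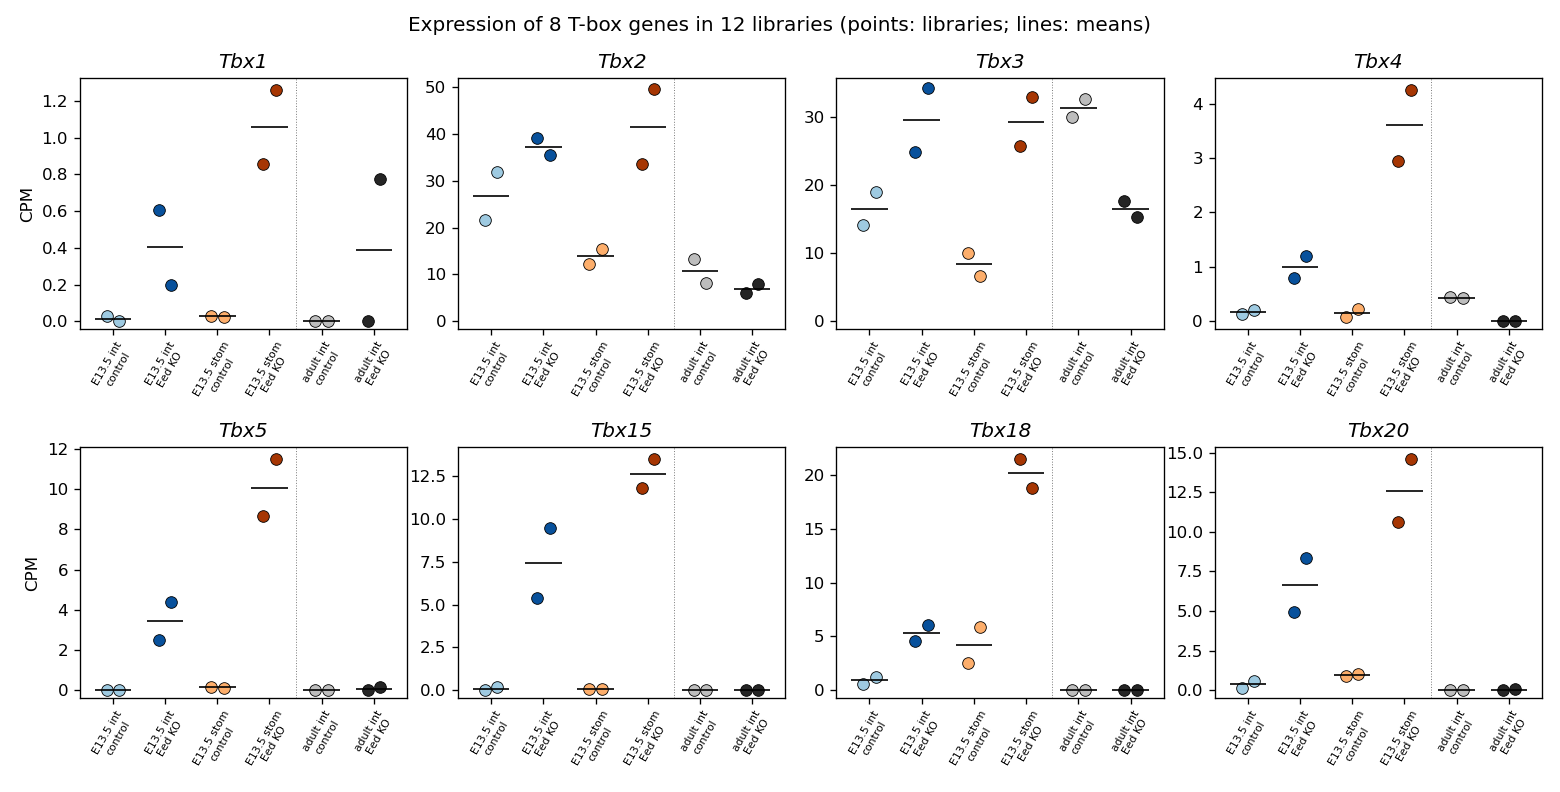
Each panel gives the CPM of a T-box gene in the 12 libraries, with points for libraries and lines for group means of 2 (int, intestine; stom, stomach; the dotted line separates embryonic from adult libraries, which were scaled apart). In every panel the embryonic *Eed* KO points lie above the controls of the same organ, whereas *Tbx2* and *Tbx3* are lower in adult *Eed* KO than in adult control.

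The same question was asked in the intestine, where 5 of the 8 genes were higher in *Eed* KO past the thresholds, against 2.38% of all tested genes. *Tbx4*, *Tbx5* and *Tbx15*, 3 of these 5, entered the test through *Eed* KO libraries only, so this count is a description too. Both *Eed* KO libraries were again above both controls for all 8, as for 21.8% of tested genes. *Tbx5* had 0 counts in both control intestine libraries and 95 and 153 counts in *Eed* KO, or 2.51 and 4.37 CPM. Against 3 counts over the control group it was at least 74.0-fold higher (adjusted p = 0.0034). *Tbx15* was at 0.0281 and 0.168 CPM in controls and 5.38 and 9.47 CPM in *Eed* KO, a log2 fold change of 6.27 (SE 0.53, adjusted p = 0.0024). Both genes kept their calls in each of the 11 alternatives, and the value of *Tbx15* was 5.43 without control intestine replicate 1 and 7.88 without replicate 2.

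*Tbx20* was at 0.140 and 0.606 CPM in the control and 4.96 and 8.33 CPM in the *Eed* KO intestine, a log2 fold change of 4.20 (SE 0.53, adjusted p = 0.0096). Without control intestine replicate 1 it was 3.44 with an adjusted p of 0.055, and without replicate 2 it was 5.52. *Tbx18* was at 0.590 and 1.25 CPM against 4.56 and 6.08 CPM, a log2 fold change of 2.55 (SE 0.48, adjusted p = 0.036), or 3.16 without control intestine replicate 2. *Tbx4* was at 0.140 and 0.202 CPM against 0.792 and 1.20 CPM, a log2 fold change of 2.53 (SE 0.50, adjusted p = 0.044). The call of *Tbx18* was lost without either control intestine replicate or *Eed* KO intestine replicate 2, and that of *Tbx4* without any single library, with adjusted p between 0.051 and 0.30. Both were also lost with the spike-in factor, at 0.078 and 0.11, and *Tbx4* at 0.066 when only the intestine libraries were fitted.

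The other 3 genes did not pass the thresholds in the intestine. *Tbx1* had 1 and 0 counts in controls and 23 and 7 counts in *Eed* KO, a ratio of 26.9 with an exact 95% counting interval of 4.46 to 1100, and its adjusted p was 0.068. Without a filter on low counts its adjusted p was 0.008. *Tbx3* was at 14.1 and 19.0 CPM in controls and 24.8 and 34.3 CPM in *Eed* KO, a log2 fold change of 0.83 (SE 0.26, adjusted p = 0.17). *Tbx2* was at 21.7 and 31.8 CPM in controls and 39.1 and 35.5 CPM in *Eed* KO, a log2 fold change of 0.48 (SE 0.24, adjusted p = 0.45). The libraries of *Tbx2*, *Tbx3* and *Tbx1* did not overlap between genotypes, but these changes were not past the test. Under spike-in scaling all 3 were past the thresholds (2.33 for *Tbx2*, 2.80 for *Tbx3* and 5.84 for *Tbx1*), and relative to the median gene there the changes were 0.48, 0.95 and 3.98.

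**Figure D3:**
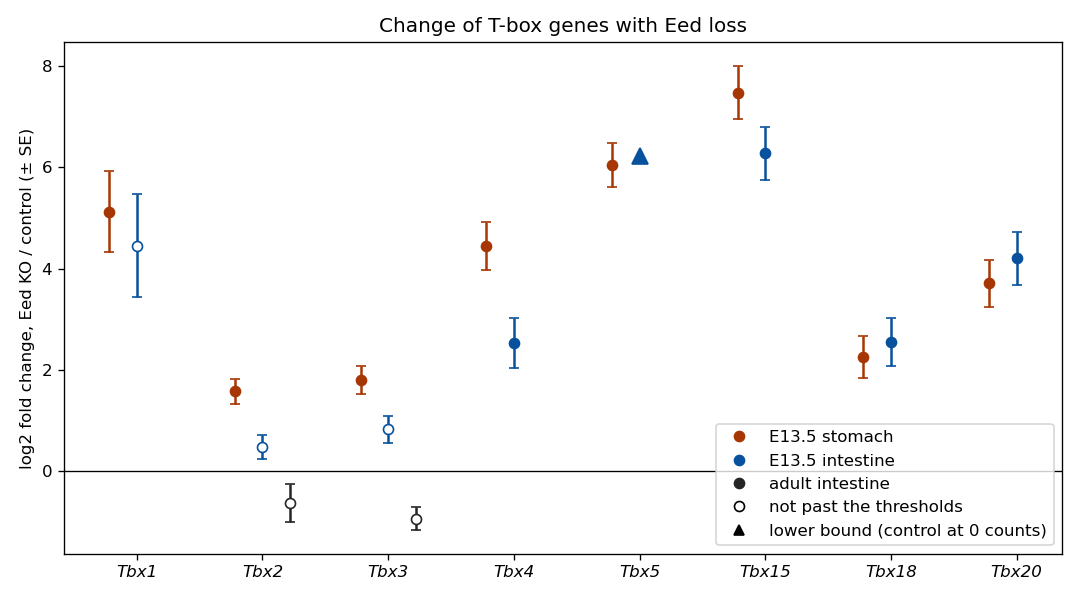
Points give the log2 fold change of *Eed* KO over control with its SE, for the stomach and intestine at E13.5 and for *Tbx2* and *Tbx3* in the adult intestine, open where the change was not past the thresholds. The triangle for *Tbx5* in the intestine is the lower bound of 6.21, and the *Tbx1* points rest on 1 to 2 control counts per organ.

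Whether the effect of *Eed* loss differed between the organs was tested with the interaction of organ and genotype, at the study's adjusted p threshold of 0.2. No T-box gene passed in edgeR, where 0.462% of all genes did, while 3 of the 8 had an unadjusted p under 0.05. The lowest p was that of *Tbx2*, with a difference of 1.10 (SE 0.34, adjusted p = 0.55) toward a larger rise in the stomach. *Tbx2* was called in 4 alternatives, with an adjusted p of 0.14 in DESeq2, 0.11 without the filter, 0.18 with the replicate number as a block and 0.066 with the number within a genotype as a block. Whether the rise of *Tbx2* differed between the organs thus depended on the fit, and the other 7 genes were called in none of the alternatives run.

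Among control libraries, the genes were compared between the organs. *Tbx18* was lower in the intestine, at the 0.590 and 1.25 CPM against 2.49 and 5.86 CPM given above, and its log2 fold change of intestine over stomach was -2.21 (SE 0.48, adjusted p = 0.035). It was the only T-box gene past the thresholds, where 3.39% of all genes were lower and 1.68% higher in the intestine. *Tbx2* and *Tbx3* were on the intestine side, by 0.94 (SE 0.24, adjusted p = 0.070) and 0.98 (SE 0.27, adjusted p = 0.079), with no overlap between organs, as for 24.5% of all genes in that direction and 26.7% in the other. *Tbx5* had 11 counts in the control stomach and 0 in the control intestine, at least 3.25-fold higher in the stomach, with an adjusted p of 0.089 that was 0.029 in DESeq2, 0.011 without the filter and 0.042 and 0.037 with the replicate blocks. *Tbx20* was also higher in both stomach than in both intestine libraries, by a log2 fold change of -1.41 (SE 0.58, adjusted p = 0.26). *Tbx1*, *Tbx4* and *Tbx15* overlapped between the control organs at 0 to 9 counts a library. The call of *Tbx18* was lost without control stomach replicate 2 (-1.46, adjusted p = 0.16), without control intestine replicate 1 (0.24) or 2 (-2.82, 0.071), with spike-in scaling (0.56) and when only the control libraries were fitted (0.061).

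Without *Eed*, 3 genes were higher in stomach than in intestine past the thresholds, against 2.94% of all genes, and none was higher in the intestine, against 1.46%. The log2 fold change of intestine over stomach was -1.86 for *Tbx4* (SE 0.38, adjusted p = 0.031), -1.56 for *Tbx5* (SE 0.31, adjusted p = 0.037) and -1.92 for *Tbx18* (SE 0.41, adjusted p = 0.034). *Tbx15* (-0.77), *Tbx20* (-0.92) and *Tbx1* (-1.37) were also lower in both *Eed* KO intestine libraries than in both *Eed* KO stomach libraries but had adjusted p of 0.21 to 0.25. Together 6 of the 8 did not overlap in this direction, as for 23.9% of all genes, and 0 of 8 in the other, as for 20.5%. *Tbx2* (-0.16) and *Tbx3* (0.01) overlapped between the *Eed* KO organs. None of the 3 calls held when *Eed* KO stomach replicate 1 or 2 or *Eed* KO intestine replicate 1 was left out, and *Tbx5* alone kept its call without *Eed* KO intestine replicate 2. Spike-in scaling ended all 3 calls (adjusted p of 0.48 to 0.90), and with only the *Eed* KO libraries fitted *Tbx4* (0.071) and *Tbx5* (0.094) were not called. These comparisons use the same *Eed* KO libraries as those with controls.

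Ordered by level, *Tbx1*, *Tbx4*, *Tbx5*, *Tbx15* and *Tbx20* had both control groups at the bottom, then the *Eed* KO intestine, then the *Eed* KO stomach, with no overlap between the last 3 groups of that order. Over all tested genes, 3.5% had both *Eed* KO intestine libraries above all 4 controls and below both *Eed* KO stomach libraries. *Tbx1*, *Tbx4*, *Tbx5* and *Tbx15* entered the test through *Eed* KO libraries only, so their low place in controls is a description. *Tbx18* followed the order control intestine, control stomach, *Eed* KO intestine and *Eed* KO stomach, and its control stomach overlapped the *Eed* KO intestine. *Tbx2* and *Tbx3* started from the control stomach, then the control intestine, and their *Eed* KO groups overlapped each other.

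Of the other T-box genes listed beside these, 3 of 9 could be tested in the embryo, and 1, *Tbr1*, a factor of the developing forebrain, was higher in both *Eed* KO organs. *Tbr1* was under the filter of 0.276 CPM in all embryonic controls and entered the test through *Eed* KO libraries only. It was at 0.0580 and 0.153 CPM in the control and 4.53 and 5.59 CPM in the *Eed* KO stomach, a log2 fold change of 5.51 (SE 0.43, adjusted p = 0.00072). In the intestine it was at 0.0843 and 0.0337 CPM against 1.98 and 2.65 CPM, a log2 fold change of 5.17 (SE 0.49, adjusted p = 0.0032). *Mga*, a protein with a T-box and a helix-loop-helix domain, averaged 128 CPM in the control intestine (SD 0.64, n = 2) and 126 CPM in the control stomach (SD 12.8, n = 2), with a log2 fold change of 0.11 and 0.28 in *Eed* KO (adjusted p = 0.92 and 0.46). *Tbx6* was at 0.325 to 0.489 CPM on average in the 4 embryonic groups and was not past the thresholds. In the adult, 2 of the 9 could be tested and 0 were called, with 0 at an unadjusted p under 0.05.

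Partners of T-box factors were followed with a list of 18 genes, all tested in the embryo. In the stomach 5 were higher and 0 lower, with a median log2 fold change of -0.03 beside 0.00 over all genes, and in the intestine 5 were higher and 0 lower, with a median of 0.22 beside 0.01. The shares called higher over all genes, 4.84% and 2.38%, are the background for these and the following lists. *Gata4*, a cardiac and gut zinc-finger factor, rose by 2.59 (SE 0.30, adjusted p = 0.0030) in the stomach and by 3.69 (SE 0.36, adjusted p = 0.0034) in the intestine. *Gata5* (1.46 and 2.45), *Gata6* (1.54 and 1.28) and *Sall1* (3.87 and 1.87) rose in both organs as well. *Hand1* rose in the stomach only past the thresholds (2.89, adjusted p = 0.032) and *Isl1* in the intestine only (1.67, adjusted p = 0.035), and the interaction test had adjusted p of 0.51 and 0.21.

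Known targets of T-box factors were followed with a list of 15 genes, 13 of them tested in the embryo. In the stomach 3 were higher and 0 lower (median 0.27), and in the intestine 3 were higher and 0 lower (median 0.56). *Cdkn2a*, a cell-cycle inhibitor that TBX2 and TBX3 are known to repress and PRC2 as well, had 2 and 0 counts in the control stomach and 1357 and 1456 counts in *Eed* KO, a ratio of 1410 with an exact 95% counting interval of 389 to 11600. In the intestine it had 1 and 0 counts against 392 and 553. *Cdkn2a* thus entered the test through *Eed* KO libraries only, and its place among the genes called is a description. *Cdkn1a*, another inhibitor on the list, rose by 1.68 (SE 0.31, adjusted p = 0.020) and 2.16 (SE 0.34, adjusted p = 0.020). The ligand gene *Wnt2* rose in the intestine (4.20, adjusted p = 0.022), from 0.0562 and 0.202 CPM to 1.74 and 2.94 CPM. *Nppa* and *Nppb*, cardiac targets of *Tbx5* and *Tbx20*, did not pass the filter, and *Nppb* had 0 counts in all 12 libraries.

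Cell type markers were set beside these changes. Limb and body wall mesenchyme markers rose without *Eed*, 6 of 6 in the stomach and 4 of 6 in the intestine, and their summed level was 30.8 to 40.9 CPM in control and 228 to 232 CPM in *Eed* KO stomach, and 8.88 to 10.4 against 36.7 to 46.9 CPM in intestine. *Tfap2b* and *Lmx1b* were under the filter in all embryonic controls. They entered the test through *Eed* KO libraries only, so the counts of limb and body wall markers are a description. Endothelial markers were higher for 4 of 6 in the stomach and 2 of 6 in the intestine, with sums of 14.4 to 15.2 against 24.3 to 44.8 CPM and 15.3 to 19.4 against 45.6 to 45.8 CPM. Skeletal muscle markers were higher for 2 of 3 tested in the stomach and 1 of 3 in the intestine, with sums of 1.13 to 1.38 against 6.14 to 8.25 CPM and 0.236 to 0.421 against 3.19 to 7.47 CPM, and *Ckm* was at 0 in all embryonic groups. *Acta1* made up most of the *Eed* KO sums, with 3.94 to 6.47 CPM in stomach and 2.77 to 6.93 CPM in intestine. *Myf5* and *Myog* went the other way in the stomach, from 35 to 15 and from 18 to 4 counts per group. *Acta1* was at 0.0673 to 0.197 CPM in control intestine and 0.174 to 0.382 CPM in control stomach. In the same order, *Myod1* was at 0.135 to 0.14 and 0.178 to 0.29 CPM, and the endothelial *Cldn5* at 0.269 to 0.421 and 0 to 0.029 CPM. None of these 3 genes had both libraries of a control group over the filter. They entered the test through *Eed* KO libraries, so the skeletal muscle and endothelial counts are a description too. No cardiac muscle, mesothelial, mesenchymal, smooth muscle, pericyte, epithelial or enteric neural crest marker was called in either organ, and of 2 leukocyte markers tested 1 was lower in the stomach. Cardiac muscle markers summed to 9.69 to 35.4 CPM in control and 16.8 to 21.4 CPM in *Eed* KO stomach, and to 6.06 to 6.10 against 10.8 to 19.6 CPM in intestine, where the genotypes did not overlap. *Nkx2-5*, which is also on the partner list, made up most of the stomach sums, with 32.1 and 6.40 CPM in control and 12.8 and 16.6 CPM in *Eed* KO stomach. The other 5 cardiac genes summed to 3.29 to 3.33 against 3.97 to 4.77 CPM in stomach and to 4.88 to 5.62 against 7.76 to 15.2 CPM in intestine, without overlap, and *Tnnt2* had a log2 fold change of 1.38 (adjusted p = 0.099) in intestine. Other sums were lower in the *Eed* KO stomach without overlap, with 401 to 519 CPM against 634 to 676 CPM in control for mesothelium, 1820 to 2060 against 2850 to 2970 CPM for smooth muscle and 725 to 786 against 939 to 1010 CPM for pericytes. Single markers of these lists were higher there without overlap. The mesothelial *Wt1* was at 112 to 140 against 76.2 to 77.3 CPM in control, and *Msln* at 0.322 to 0.603 against 0.087 to 0.127 CPM. The smooth muscle gene *Des* was at 55.8 to 72.4 against 42.5 to 43.0 CPM. In the intestine the pericyte sum was 655 to 975 CPM against 1060 to 1190 CPM in control. Markers with an adjusted p under 0.05 (edgeR) but too small a change for a call were *Foxf1* (-0.62), *Kcnj8* (-0.79), *Upk1b* (-0.81) and *Upk3b* (-0.97) in the stomach, and *Epcam* (1.00) in the intestine. The general mesenchymal markers summed to 11200 to 19200 CPM in all 4 embryonic groups. The part of these markers in the T-box changes was not tested.

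Genes beside the members gave few calls. Next to *Tbx1*, *Gnb1l* and *Gp1bb* were not called in either organ, nor were *Wars2* and *Wdr3* next to *Tbx15*, *Dpy19l2* and *Gm10180* next to *Tbx20*, *Brip1* next to *Tbx4*, *Rbm19* next to *Tbx5*, *Cep162* next to *Tbx18* or *2610027K06Rik* next to *Tbx2*. The antisense gene *Tbx3os1*, which overlaps the start of *Tbx3*, was not called, with a log2 fold change of 0.52 (adjusted p = 0.60) in the stomach and of 0.37 (adjusted p = 0.88) in the intestine. *RP23-353O7.5* overlaps the start of *Tbx18* on the other strand and was higher in both organs, by 2.1 (adjusted p = 0.016) and 2.58 (adjusted p = 0.035). The strand setting used to count the embryonic reads is not given in the sources used here, so reads of *Tbx18* and of this gene may not be separated.

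The genes with the most similar pattern over the 8 embryonic libraries, by Pearson's r of log2(CPM + 1) among 13386 genes of at least 1 CPM, included other developmental regulators. *Tbx5* was closest to *Dmrta2* (r = 0.998), *Irx2* (0.997) and *Tbr1* (0.997), *Tbx4* to *Evx1* (0.997), *Spint1* (0.996) and *En1* (0.995), and *Tbx15* to *Hoxb13* (0.998), *Tap1* (0.996) and *Foxd1* (0.996). *Tbx18* was closest to *Klf4* (0.987), *Wnt2* (0.986) and *Fam46c* (0.986), and *Tbx20* to *Zc3hav1* (0.994), *Susd5* (0.993) and *Srrm3* (0.992). *Tbx1* was closest to *Mdga2* (0.987), *Tbx2* to *Gm17354* (0.990) and *Tbx3* to *Hmha1* (0.993). These values describe 4 groups of 2 libraries that share genotype and organ.

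In the adult intestine, only *Tbx2* and *Tbx3* passed the filter for low counts. *Tbx3* was at 30.0 and 32.6 CPM in adult controls and at 17.6 and 15.3 CPM in adult *Eed* KO, a log2 fold change of -0.93 (SE 0.23) with an adjusted p of 0.026 (edgeR), which is under the size threshold of 1. *Tbx2* was at 13.2 and 8.20 CPM against 6.02 and 7.89 CPM, a log2 fold change of -0.62 (SE 0.38, adjusted p = 0.28). So 0 of 2 were called, where 12.3% of all genes were called higher and 7.23% lower, and 1 of the 2 had an unadjusted p under 0.05. DESeq2 also called 0. Both control libraries were above both *Eed* KO libraries for each, as for 33.0% of all tested genes. Without adult *Eed* KO replicate 1, *Tbx3* reached a log2 fold change of -1.05 and was called (adjusted p = 0.035). Adult reads were counted without strand, so those of *Tbx3* and *Tbx3os1* cannot be told apart where the genes overlap.

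The other 6 genes were near 0 in the adult. *Tbx15* and *Tbx18* had 0 counts in all 4 adult libraries, *Tbx20* had 1 count and *Tbx5* 2 counts, all in *Eed* KO replicate 2, which also held the 10 counts of *Tbx1*. *Tbx4* had 6 counts in each adult control and 0 in each *Eed* KO library. A count of 0 allows up to 3 counts, for counting error only, or 0.189 to 0.263 CPM in a library without TMM scaling. With TMM scaling, 3 counts stood for 0.301 CPM in adult *Eed* KO replicate 1 and 0.232 CPM in replicate 2. The induction of *Tbx15*, *Tbx18* and *Tbx20* seen at E13.5 was thus not detectable in these adult libraries, which differ from the embryonic ones in age, Cre driver, kit and the extent of *Eed* loss together.

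Marker levels moved with adult genotype. All 6 leukocyte markers were higher in adult *Eed* KO, with a summed level of 2650 to 3480 CPM in controls and 89100 to 100000 CPM in *Eed* KO. Of the mesenchymal markers 3 were lower, with sums of 8890 to 9190 against 2630 to 3730 CPM, and of the pericyte markers 3 were lower, with sums of 11500 to 13400 against 3170 to 4420 CPM. Smooth muscle markers were higher for 3 of 6, and endothelial markers for 2 of 6. The part of these in the adult values of *Tbx2* and *Tbx3* was not tested. Among the targets, 1 was higher (*Cdkn1a*, 3.83, adjusted p = 0.00071) and 4 were lower (*Fgf10*, *Wnt2b*, *Bmp4* and *Gja1*, -1.77 to -2.18), and among 10 tested partners *Tle4* was higher (1.67, adjusted p = 0.0054).

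Chromatin accessibility was read from 4 ATAC-seq peak lists, each called on pooled replicates, so that no replicate error can be given and depth is unknown. All 8 T-box genes had a peak within 1000 bp of the gene start in every list. Of all tested genes with a single autosomal position, 88.2% had one in the control intestine list, 89.3% in the *Eed* KO intestine list, 88.6% in the control stomach list and 89.3% in the *Eed* KO stomach list. *Tbx5*, with 0 counts in the control intestine, thus had a listed peak beside its start there, as most genes did. The *Tbx4* peak of the control stomach list, at a -log10 q of 1.23, did not meet the q cutoff that the study states. Median fold enrichment of the strongest promoter peak was 3.39 to 3.92 for the T-box genes, below the 6.45 to 6.92 of all genes with such a peak. For *Tbx1* the gene start used here is that of the GENCODE vM4 model, chr16:18586969, which lies downstream of both RefSeq starts. The *Tbx1* promoter peaks given below reached neither RefSeq start in any list, so they describe the vM4 start only.

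*Tbx3* had the strongest promoter peak of the 8 in each list, with a fold enrichment of 8.18 (control) and 6.03 (*Eed* KO) for the intestine and of 8.75 and 6.72 for the stomach. Intestinal fold enrichments of control and *Eed* KO were 6.71 and 4.16 for *Tbx20*, 4.33 and 4.31 for *Tbx18* and 4.17 and 3.38 for *Tbx5*. Gastric fold enrichments were 5.39 and 4.98 for *Tbx20*, 4.50 and 3.93 for *Tbx18* and 3.96 and 2.85 for *Tbx5*. These enrichments were lower in the *Eed* KO list of each organ, while the RNA of all 4 genes was higher in the *Eed* KO stomach past the thresholds. The median over all genes with a promoter peak was lower in *Eed* KO too. It was 6.92 in control and 6.45 in *Eed* KO for the intestine, and 6.80 and 6.68 for the stomach. The -log10 q of these stomach peaks was instead higher in *Eed* KO, and each was also wider there. It was 137 and 152 for *Tbx3*, 26.7 and 54.5 for *Tbx20*, 21.7 and 26.2 for *Tbx18* and 7.83 and 10.0 for *Tbx5*. In the intestine it was 178 and 114 for *Tbx3*, 40.7 and 26.5 for *Tbx20*, 20.7 and 20.9 for *Tbx18* and 10.2 and 9.17 for *Tbx5*. For the other 4 genes the stomach peak was stronger in *Eed* KO, *Tbx15* at 3.88 and 4.53, *Tbx4* at 2.26 and 2.65, *Tbx1* at 2.65 and 2.75 and *Tbx2* at 2.43 and 2.46. At the outer RefSeq start of *Tbx1* the order was reversed, with 3.14 in the control and 2.94 in the *Eed* KO stomach list. Among the intestine lists only *Tbx15* was higher in *Eed* KO (3.62 and 3.86), with 3.27 and 2.93 for *Tbx1*, 2.69 and 2.36 for *Tbx2* and 2.52 and 2.51 for *Tbx4*, and the -log10 q of *Tbx4* was 1.23 in the control stomach list and 3.20 in the *Eed* KO stomach list.

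At several genes the promoter peak was wider in the *Eed* KO stomach. At *Tbx5* the promoter peak was 529 bp wide in the control and 2142 bp in the *Eed* KO stomach list, at *Tbx15* 793 and 2353 bp, at *Tbx1* 1680 and 2552 bp and at *Tbx20* 1094 and 1503 bp. *Tbx15* had 2 promoter peaks in the control stomach list, and 793 bp is the width of the stronger one. The *Eed* KO peak of *Tbx15* spanned the places of both. Peaks within 5000 bp of the gene start covered a longer stretch in the *Eed* KO than in the control stomach list for 8 of 8 genes, as for 64.8% of all tested genes, and in the intestine for 6 of 8, as for 61.8%. Coverage in the stomach rose from 18.5% to 35.4% at *Tbx5*, from 16.1% to 29.8% at *Tbx15*, from 18.0% to 29.8% at *Tbx20* and from 40.7% to 52.6% at *Tbx1*, and over all genes the median was 11.8% and 12.8%. *Tbx2* (42.4% and 38.7%) and *Tbx15* (16.4% and 15.2%) were covered less in the *Eed* KO intestine list. The *Eed* KO lists covered more of the genome in all, 87.7 against 80.4 Mb in the stomach and 86.3 against 73.8 Mb in the intestine.

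**Figure D4:**
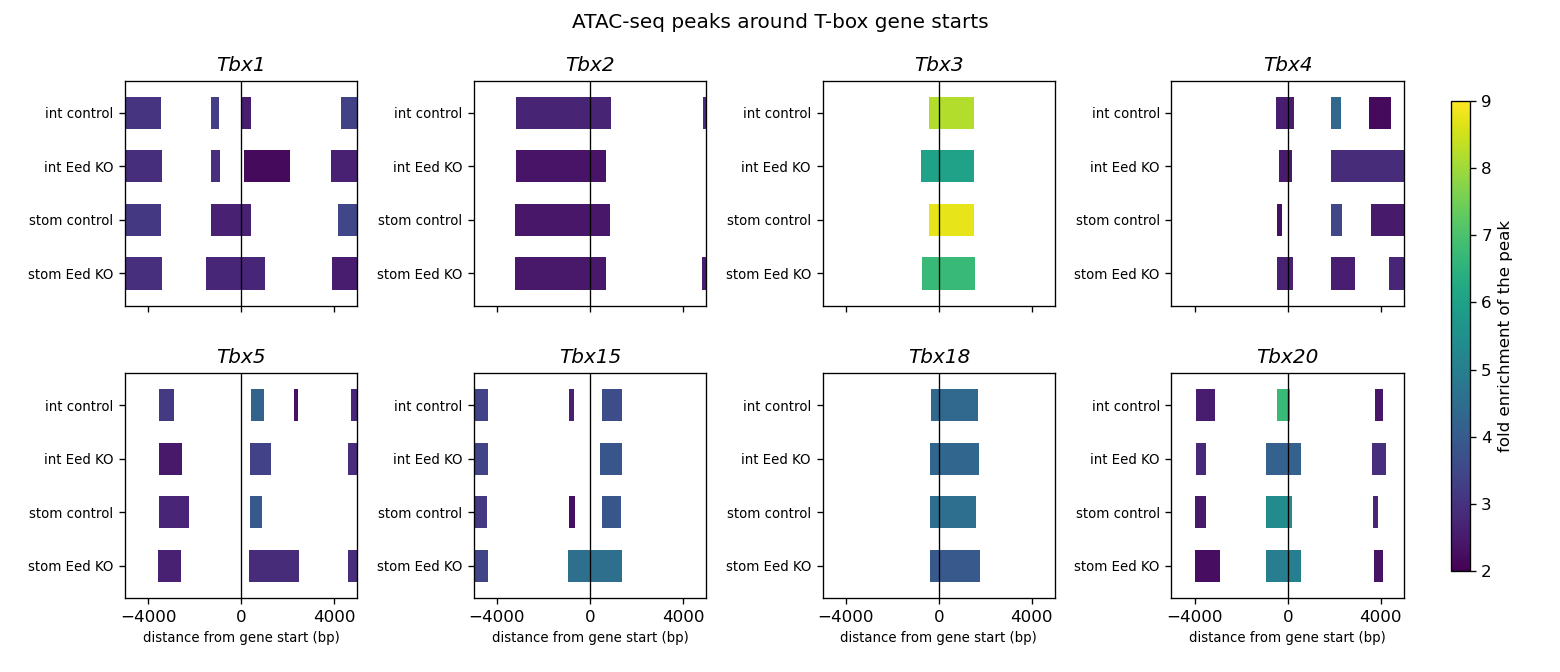
Bars give the peaks of the 4 ATAC-seq lists within 5000 bp of each T-box gene start (bp from the start in the direction of transcription, bars cut at the edges), coloured by fold enrichment. The *Tbx3* peak is the strongest, and the peaks at *Tbx5* and *Tbx15* are widest in the *Eed* KO stomach list, at 2142 and 2353 bp.

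Within 50 kb of the genes, *Tbx5* had 7 of 16 peaks in the *Eed* KO stomach list that overlapped no control stomach peak, with a fold enrichment of up to 3.72, and 1 of 10 control peaks without a counterpart in *Eed* KO. Over whole lists, 21.0% of *Eed* KO and 19.9% of control stomach peaks had no counterpart, and 25.5% and 14.3% in the intestine. In the intestine *Tbx2* had the most such *Eed* KO peaks, 6 of 15, and *Tbx5* had 3 of 10. *Tbx2* and *Tbx18* lost more than they gained in the stomach, with 3 lost and 1 gained at *Tbx2* and 3 lost and 2 gained at *Tbx18*. *Tbx20* had 5 peaks in each stomach list, all of them shared, although its RNA rose. *Tbx2* and *Tbx4* have overlapping windows, and their highest enrichment at such a peak was the same, 4.23 in the intestine and 4.93 in the stomach.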

How the data were processed

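RNA-seq and ATAC-seq were done on sorted GFP+ cells. Per the labels and methods, the authors trimmed reads with Trimmomatic 0.32, aligned them to GRCm38/mm10 with STAR 2.5.1b (RNA) or BWA 0.7.8 (ATAC), and counted reads per GENCODE vM4 gene with featureCounts. Embryonic libraries were stranded poly(A) libraries, and adult libraries were unstranded low-input libraries. The deposited counts are whole numbers without normalization. The authors pooled ATAC-seq replicates and called broad peaks with MACS2 2.1.2, and each deposited peak has a fold enrichment and a -log10 q, with values of q above the stated cutoff among them.

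Counts were tested with the quasi-likelihood test of edgeR 4.0.16 (limma 3.58.1, R 4.3.3) on all genes passing filterByExpr, with TMM scaling, 4 embryonic group means or 2 adult group means and Benjamini-Hochberg adjustment. Spike-ins were left out of library sizes. The common biological variation was 15.8% in the embryonic and 29.1% in the adult fit. Standard errors were the log2 fold change divided by the root of F. DESeq2 1.42.0 was an alternative. Folds against 0 counts used 3 counts over the group, and counting intervals were exact binomial. TPM used the gene lengths of the adult files. Tables were made with pandas 2.3.3, scipy 1.17.1 and numpy 2.4.6 (Python 3.11.15), and the fits were tested on simulated data. Embryonic and adult libraries were normalized separately.

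The T-box genes, the lists (other T-box genes, partners, targets and cell type markers), tests and alternatives were chosen with earlier results of these data known. Genes named are the 8 T-box genes, other T-box genes and antisense neighbours, listed partners and targets past the thresholds, the nearest tested gene on each side, the 3 most similar genes of at least 1 CPM, and *Eed*. Other marker genes named, *Nppa*, *Nppb* and *Nkx2-5* fall outside that rule and were chosen after their values were seen. A listed target past the thresholds is not reported here by name. Cell numbers and the number of animals per library were not used here.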

Additional observations from a re-analysis of the deposited data

Results flagged for a closer look

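*Tbx2* and *Tbx3* moved in opposite directions in the embryonic and the adult intestine. Both *Eed* KO libraries were above both controls at E13.5 (0.48 for *Tbx2* and 0.83 for *Tbx3* on the log2 scale), as for 21.8% of all tested genes. Both adult *Eed* KO libraries were below both adult controls (-0.62 and -0.93), as for 33.0% of genes tested in the adult. The difference between the ages was not tested, because age, Cre driver, library kit and normalization differ together, and neither gene was past the thresholds at either age in the intestine. Summed leukocyte markers rose in the adult *Eed* KO libraries from 2650 to 3480 CPM to 89100 to 100000 CPM, and smooth muscle sums from 1820 to 2260 CPM to 3150 to 3710 CPM. Mesenchymal sums fell from 8890 to 9190 CPM to 2630 to 3730 CPM, and pericyte sums from 11500 to 13400 CPM to 3170 to 4420 CPM. The part of these markers in the adult values was not tested.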

How the results depend on the processing

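The 17 differences of T-box genes past the thresholds kept their direction in all alternatives run for them. All 17 stayed called with DESeq2, with DESeq2 size factors, without the filter and with the replicate block by number, 13 with spike-in scaling or with only the compared groups fitted, and 12 with the spike-in factor. The number of T-box genes higher in the *Eed* KO stomach was 5 instead of 8 with the spike-in factor, and 5 to 7 when 1 library was left out. In the intestine it was 8 instead of 5 with spike-in scaling, 3 with the spike-in factor and 2 to 4 when 1 library was left out. Between the control organs, 2 genes instead of 1 were lower in the intestine with DESeq2, without the filter, with the spike-in factor and under either replicate block (one number across all 4 groups, or one number within a genotype), 0 with spike-in scaling or the compared groups alone, and 0 to 1 with 1 library left out. Between the *Eed* KO organs, 0 instead of 3 were called with spike-in scaling, 1 with the compared groups alone and 0 to 1 with 1 library left out. In the interaction, 1 gene instead of 0, *Tbx2*, was called with DESeq2, without the filter and under either replicate block, and in the adult 0 to 1 were called with 1 library left out. The cause was not tested. Replicate numbers share no stated meaning. The study's methods describe taking both organs from each animal but do not say whether same-numbered libraries came from the same animals. The main fit did not pair the organs. Deviations of same-numbered libraries had a correlation of 0.748 between the *Eed* KO organs, 0.37 between the control organs, 0.138 to 0.282 between genotypes and -0.082 in the adult.

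Reversed directions were limited to values not past the thresholds and to *Eed*, which was at 0.14 in the stomach with spike-in scaling. With spike-in scaling, *Tbx3* was at -0.21 between the *Eed* KO organs and *Tbx18* at 0.06 in the interaction, and with the spike-in factor *Tbx4* was at -0.14 between the control organs. With 1 library left out, values between the control organs ranged from -1.17 to 1.28 for *Tbx15*, from -0.43 to 0.94 for *Tbx4* and from -3.13 to 0.05 for *Tbx1*. Those between the *Eed* KO organs ranged from -0.23 to 0.23 for *Tbx3* and from -0.41 to 0.16 for *Tbx2*. Those of the interaction ranged from -0.41 to 2.04 for *Tbx15*, from -1.82 to 0.27 for *Tbx20*, from -0.90 to 0.46 for *Tbx18* and from -1.76 to 1.68 for *Tbx1*.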
